A study of Mus musculus with 12 samples.

Results

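Coinhibitory receptors and the receptors that compete with them were followed in regulatory T cells (Tregs) of mice whose CD25, a chain of the receptor for interleukin-2, had been deleted. The members were 9 gene symbols: Tigit, Pdcd1 (PD-1), Lag3, Havcr2 (TIM-3), Cd160, Cd96, Cd226, Btla and Cd200. They were picked by symbol, 9 of the 24421 symbols in the count table, and all 9 were among the 12461 genes tested. Havcr2 passed the filter on low counts without the help of WT cTreg, where it had 8, 1 and 1 reads.

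The study sorted Tregs from spleen and lymph nodes of Mus musculus and sequenced their total RNA in bulk. The 4 groups were knockout effector Tregs (KO eTreg), wild-type effector Tregs (WT eTreg), knockout central Tregs (KO cTreg) and wild-type central Tregs (WT cTreg), with 3 libraries each. Every group carried R26tomato+/+ and Foxp3eGFPERT2+/+, and tamoxifen (2 mg/kg, intraperitoneal, for 5 days) was given to every group, so that WT cells were exposed to it too. Cells were taken 10 days after induction and sorted on viability, CD4, GFP and the tdTomato reporter. Central and effector cells came from separate gates, and KO cells were also gated as low for CD25. Each library pooled 2 to 3 mice. Mouse ages are not stated in the labels. The genotype field reads CD25WT/WT for libraries titled KO and CD25FL/FL for those titled WT, and the groups here go by title and cell type. Il2ra, the CD25 gene, was lower in the libraries titled KO, by a log2 fold change of -2.07 ± 0.07 (SE) in eTreg and -2.28 ± 0.07 in cTreg, although the CD25-low gate selects for this as well.

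Coinhibitory receptors dampen T cell activation when they meet ligands on neighbouring cells. TIGIT, CD96 and the costimulatory receptor CD226 share the ligand CD155 and compete for it. PD-1 recruits the phosphatase SHP-2 to its tail when it meets PD-L1 or PD-L2, LAG-3 binds MHC class II, and TIM-3 binds galectin-9 among other ligands. BTLA and CD160 share the ligand HVEM, and CD200 is itself a ligand, for an inhibitory receptor found mostly on myeloid cells. In Tregs, TIGIT and PD-1 are known as receptors of activated cells, and TIGIT is linked to suppressive function.

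Tigit, Btla, Cd200 and Cd96 lie on chromosome 16 between 43648867 and 46120251 (mm10), a stretch of 2.47 Mb. Pdcd1 lies on chromosome 1 (94038305 to 94052553), Lag3 on chromosome 6 (124904361 to 124911705), Havcr2 on chromosome 11 (46454935 to 46481255) and Cd160 on chromosome 3 (96798763 to 96829351). In the GENCODE annotation only Cd160 overlapped another gene, sharing 68 bases of exon with Pdzk1 on the opposite strand.

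Promoter windows of 250 bases before the start of transcription were available from RefSeq (GRCm38.p6) for 7 of the 9 members. Of these 7, Tigit, Pdcd1 and Havcr2 had the largest differences in mRNA between KO and WT cTreg, and Cd96 had the smallest. The windows of Tigit, Pdcd1 and Havcr2 are set against that of Cd96. Capitals mark the Runx motif TGTGGT or its reverse complement, and all are written 5′ to 3′ along the gene.
Tigit, chr16:43664185-43664434, minus strand: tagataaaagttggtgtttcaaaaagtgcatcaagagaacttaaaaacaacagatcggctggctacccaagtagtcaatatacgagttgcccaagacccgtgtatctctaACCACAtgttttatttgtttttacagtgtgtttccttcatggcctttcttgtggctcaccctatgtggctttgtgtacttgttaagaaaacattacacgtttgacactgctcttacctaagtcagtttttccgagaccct
Pdcd1, chr1:94052554-94052803, minus strand: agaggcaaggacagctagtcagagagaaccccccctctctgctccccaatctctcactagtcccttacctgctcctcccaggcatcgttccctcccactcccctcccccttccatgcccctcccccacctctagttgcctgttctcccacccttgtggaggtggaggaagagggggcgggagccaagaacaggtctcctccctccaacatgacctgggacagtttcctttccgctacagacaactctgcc
Havcr2, chr11:46454681-46454930, plus strand: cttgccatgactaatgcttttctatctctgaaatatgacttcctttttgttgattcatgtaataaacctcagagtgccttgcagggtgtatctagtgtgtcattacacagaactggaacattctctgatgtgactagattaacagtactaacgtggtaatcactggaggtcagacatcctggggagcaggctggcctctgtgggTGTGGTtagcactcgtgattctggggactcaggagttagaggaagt
Cd96, chr16:46120249-46120498, minus strand: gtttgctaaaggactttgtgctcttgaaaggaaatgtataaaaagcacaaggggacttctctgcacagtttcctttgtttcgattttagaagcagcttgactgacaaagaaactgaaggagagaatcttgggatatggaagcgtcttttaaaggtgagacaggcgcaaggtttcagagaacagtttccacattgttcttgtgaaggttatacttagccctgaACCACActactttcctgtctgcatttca

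The Runx motif, searched on both strands, was in 6 of the 8 windows of the members (Cd160 has a pair of starts), that is in Tigit, Havcr2, Cd160, Cd96 and Btla but not in the windows of Pdcd1 or Cd200. It was in 14.0% of all 32851 windows of the same length. In Tigit the match began 140 bases before the start and overlapped an E-box (CANNTG). The other motifs searched were AP-1 (TGANTCA), in the window of Havcr2 alone and in 6.7% of all windows, STAT (TTCNNNGAA), in 2 of the 8 and 7.0% of all, NFAT (GGAAA), in 4 of the 8 and 55.6% of all, the E-box, in 4 of the 8 and 66.2% of all, and GAAAG, found in Blimp-1 and IRF sites, in 6 of the 8 and 51.5% of all. Cd96, whose level did not pass the test for CD25 loss in either gate, held the Runx motif as Tigit did. Pdcd1, which rose in both gates, did not hold it in the window searched. Lag3 and Cd226 had no window, and any part of a motif in the differences between KO and WT was not tested. A match is a run of letters and not a site shown to be bound.

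Total counts were 14567313 to 19121577 per library. The ribosomal precursor Rn45s took 3.19 to 3.32% of counts in KO eTreg, 4.11 to 4.34% in WT eTreg, 18.1 to 18.5% in KO cTreg and 22.4 to 24.4% in WT cTreg. Marker sums are given in CPM, a count scaled to library size, here corrected for composition by TMM. All 6 Treg markers were present in every group. The 5 effector gate markers (Cd44, Klrg1, Icos, Itgae and Cxcr3) summed to 1125 to 1421 CPM in KO eTreg, 1026 to 1230 in WT eTreg, 679 to 753 in KO cTreg and 218.5 to 309 in WT cTreg. Of other cells, the 6 B cell markers summed to 9.56 to 11.8 CPM in KO eTreg, 15.4 to 15.8 in WT eTreg, 7.71 to 9.75 in KO cTreg and 11.4 to 12.7 in WT cTreg. Cd79b made up most of each sum, averaging 9.37, 14.55, 8.15 and 11.2 CPM in that order. Ms4a1 was at 0 in every cTreg library, but Cd79a was at 0.305 to 1.32 CPM there. The 7 markers of CD8 T and NK cells summed to 8.89 to 23.0, 8.66 to 11.7, 30.4 to 37.8 and 21.4 to 23.1 CPM in the same order of groups. Over all libraries the 3 plasma cell markers summed to 52.6 to 67.2 CPM and the 3 erythroid markers to 0.665 to 11.1 CPM. Nearly all of the plasma cell sum was Xbp1, at group means of 53.6 to 64.5 CPM. Sdc1 and Jchain stayed under 1 CPM in every library.

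**Figure D1:**
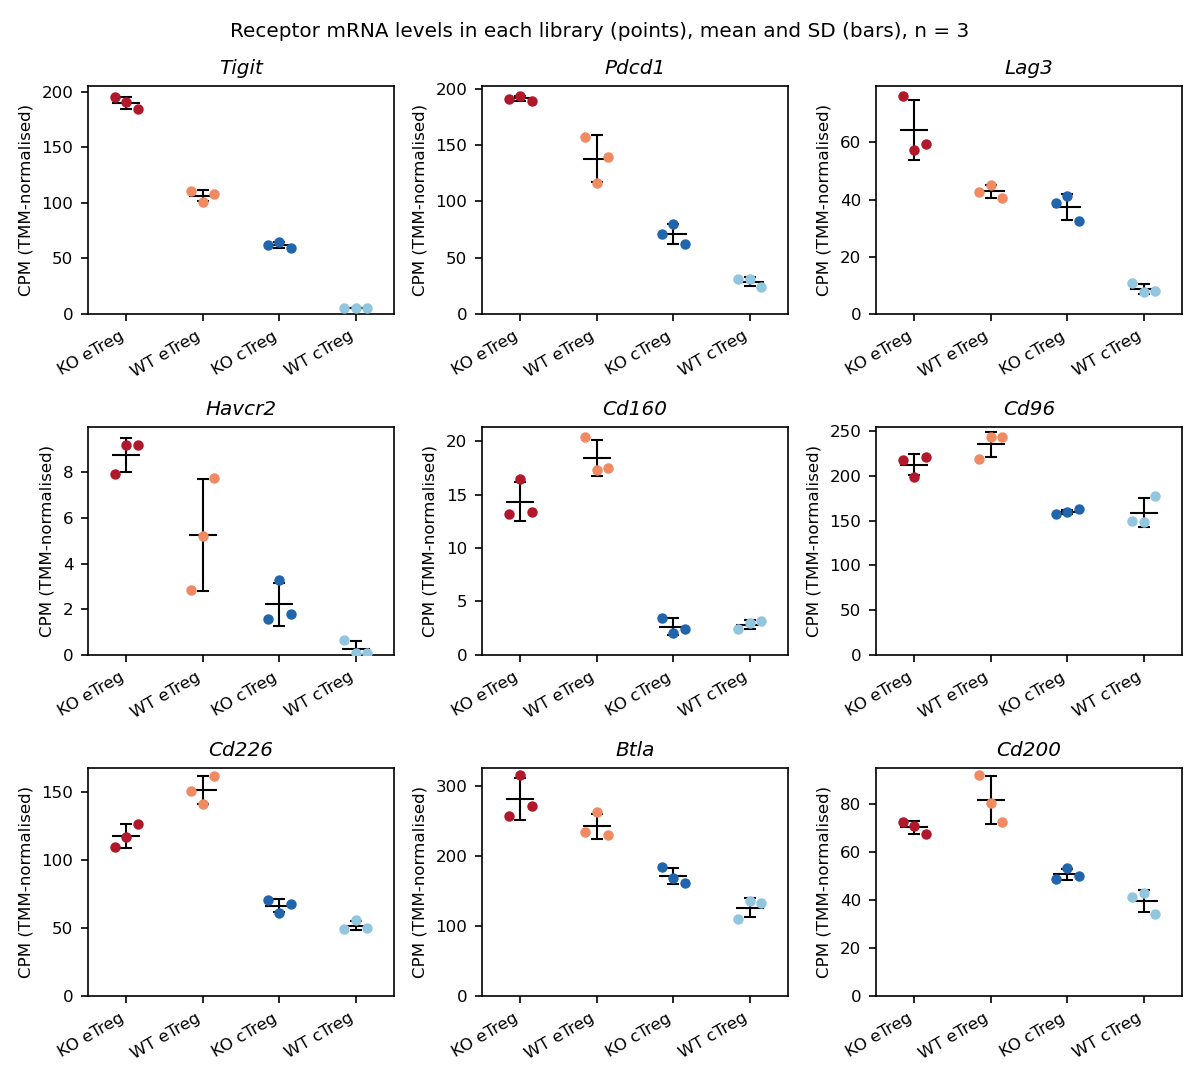
Level of each receptor mRNA in TMM-normalised CPM (vertical axes, each from 0) in the 12 libraries. Points are libraries, and bars give the mean and SD of 3. Tigit, Pdcd1, Lag3 and Havcr2 descend in the order KO eTreg, WT eTreg, KO cTreg, WT cTreg, while Cd160, Cd96, Cd226 and Cd200 were higher on average in WT eTreg than in KO eTreg.

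Libraries are given in the order of replicates 1, 2 and 3. Tigit showed the widest range over the 4 groups. It stood at 195, 191 and 184 CPM in KO eTreg and at 110.5, 101 and 108 CPM in WT eTreg. In the central gate it stood at 62.0, 64.7 and 59.3 CPM in KO cTreg, against 5.29, 5.05 and 5.38 CPM in WT cTreg. No libraries of different groups overlapped, and the lowest KO cTreg library was above every WT cTreg library. KO exceeded WT by a log2 fold change of 0.84 ± 0.05 (SE, n = 3 libraries per group) in eTreg (edgeR adjusted p = 3.06e-08) and of 3.56 ± 0.07 in cTreg (3.85e-15). The p-values are two-sided, from edgeR's quasi-likelihood test, adjusted by Benjamini and Hochberg's method over all genes tested, and measure the spread between libraries, each a pool of mice. In bulk RNA, more cells that carry a transcript and more transcript in each cell cannot be told apart. The effector marker sum given above also differed between KO and WT cTreg, and its part in this and the other rises in cTreg was not tested.

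Pdcd1, the gene of PD-1, rose in both gates. It stood at 191, 194 and 189 CPM in KO eTreg, against 157, 116 and 140 CPM in WT eTreg. In cTreg it stood at 70.8, 80.1 and 62.1 CPM in KO, against 31.4, 30.5 and 24.1 CPM in WT. The KO libraries lay above the WT libraries in both gates, and WT eTreg was the group with the most spread. Log2 fold changes were 0.48 ± 0.12 in eTreg (edgeR adjusted p = 0.0349) and 1.31 ± 0.14 in cTreg (3.83e-05). The eTreg call was weak: edgeR's adjusted p was above 0.05 when KO cTreg 1, WT eTreg 2, WT eTreg 3 or any library of KO eTreg was left out (up to 0.0996), and with no filter on low counts (0.0786).

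Lag3, whose protein binds MHC class II, rose in both gates too. It stood at 76.3, 57.3 and 59.5 CPM in KO eTreg, against 42.8, 45.2 and 40.7 CPM in WT eTreg. In cTreg it stood at 38.7, 41.3 and 32.5 CPM in KO, against 10.8, 7.64 and 7.99 CPM in WT. KO and WT libraries did not overlap in either gate. Log2 fold changes were 0.58 ± 0.12 in eTreg (edgeR adjusted p = 0.0119) and 2.09 ± 0.15 in cTreg (7.70e-07). Without WT eTreg replicate 3 the eTreg adjusted p by edgeR was 0.0551.

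Havcr2, the gene of TIM-3, was the lowest of the 9 receptors per kilobase of exon in every group. It had 7.91, 9.19 and 9.20 CPM in KO eTreg and 2.85, 5.21 and 7.75 CPM in WT eTreg. In cTreg it had 1.56, 3.29 and 1.78 CPM in KO, against 0.642, 0.0721 and 0.0768 CPM in WT. The KO libraries lay above the WT libraries in both gates, but the eTreg difference of 0.73 ± 0.35 on the log2 scale did not pass the test (edgeR adjusted p = 0.283). The cTreg difference was 3.10 ± 0.69 (edgeR adjusted p = 0.00545) and rested on 102 reads in KO cTreg and 10 in WT cTreg over 3 libraries each, a ratio of 8.91 with an exact 95% interval of 4.65 to 19.1 that covers counting error only. Without WT cTreg replicate 1, which held 8 of those 10 reads, the log2 fold change was 4.78 (edgeR adjusted p = 0.00228). Myeloid cells also express Havcr2. The 9 myeloid and dendritic markers summed to 7.81 to 11.1 CPM in KO eTreg, 5.77 to 8.16 in WT eTreg, 5.48 to 12.7 in KO cTreg and 2.74 to 4.76 in WT cTreg. Cd14 was at 0 in every library of WT eTreg and KO cTreg, and Itgam averaged 4.51 CPM in KO cTreg and 1.43 CPM in WT cTreg. In eTreg Zbtb46 averaged 4.79 CPM in KO and 2.61 CPM in WT, and Lyz2 went the other way (2.57 and 3.12 CPM). The part of the myeloid and dendritic markers in the Havcr2 difference was not tested.

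Cd226, the gene of the costimulatory rival of TIGIT, lies on chromosome 18 (89176967 to 89272229) and went opposite ways in the gates. It fell in KO eTreg, with 109, 117 and 126 CPM against 151, 141 and 162 CPM in WT eTreg, and rose in KO cTreg, with 70.4, 60.9 and 67.2 CPM against 49.0, 55.6 and 50.2 CPM in WT cTreg. KO and WT libraries did not overlap in either gate. The log2 fold change was -0.36 ± 0.07 in eTreg (edgeR adjusted p = 0.00373) and 0.36 ± 0.08 in cTreg (0.00196). The difference between these effects was -0.72 ± 0.10 (adjusted p = 5.73e-04, edgeR interaction test).

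Cd96, the gene of another CD155 receptor, did not pass the test for CD25 loss in either gate. It stood at 217, 199 and 221 CPM in KO eTreg and at 219, 243 and 243 CPM in WT eTreg, with KO replicate 3 above WT replicate 1. In cTreg it stood at 158, 159 and 163 CPM in KO and at 150.1, 149 and 178 CPM in WT, so that the KO libraries lay inside the WT range. The log2 differences were -0.15 in eTreg (95% interval -0.29 to -0.01, edgeR adjusted p = 0.225) and 0.01 in cTreg (-0.13 to 0.15, adjusted p = 0.939).

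Btla and Cd160 encode receptors of HVEM. Btla rose in KO cTreg, with 184, 168 and 161 CPM against 109.9, 136 and 132 CPM in WT cTreg, by 0.44 ± 0.09 on the log2 scale (edgeR adjusted p = 0.00372). It stood at 257, 315 and 271 CPM in KO eTreg and at 234, 263 and 229 CPM in WT eTreg, overlapping groups with a log2 difference of 0.21 (95% interval 0.02 to 0.41, edgeR adjusted p = 0.209). Cd160 passed the test in neither gate. It stood at 13.2, 16.5 and 13.4 CPM in KO eTreg, below the 20.4, 17.3 and 17.5 CPM of WT eTreg (log2 difference -0.36, 95% interval -0.65 to -0.06, edgeR adjusted p = 0.152). In cTreg it stood at 3.48, 2.01 and 2.44 CPM in KO and at 2.41, 2.96 and 3.15 CPM in WT, which overlapped (-0.12, -0.57 to 0.33, edgeR adjusted p = 0.716). Cd160 is also a gene of natural killer and CD8 T cells. The 7 markers of those cells, whose sums are given above, differed in their pattern. Eomes averaged 2.88 CPM in KO eTreg and 1.90 in WT eTreg, and 13.8 in KO cTreg and 3.77 in WT cTreg. Cd8b1 averaged 5.32 CPM in KO eTreg, 6.43 in WT eTreg, 9.48 in KO cTreg and 10.9 in WT cTreg, and Prf1 1.62, 1.16, 8.29 and 6.99 CPM in that order. Klrb1c reached 11.4 CPM in KO eTreg replicate 2 and at most 1.85 CPM in any other library. Cd8a, Klrd1 and Ncr1 stayed under 1 CPM in every library, and Ncr1 had no reads outside KO eTreg. Their part in the Cd160 values was not tested.

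Cd200, a ligand that restrains myeloid cells, rose in KO cTreg. It stood at 49.0, 53.4 and 49.9 CPM there, against 41.3, 42.8 and 34.4 CPM in WT cTreg (log2 fold change 0.36 ± 0.09, edgeR adjusted p = 0.00745). In eTreg it stood at 72.8, 71.0 and 67.4 CPM in KO, against 92.3, 80.4 and 72.7 CPM in WT, where KO replicate 1 was just above WT replicate 3 (-0.22, 95% interval -0.39 to -0.04, edgeR adjusted p = 0.155).

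Counted over the members, 4 of 9 were called in eTreg at an edgeR adjusted p under 0.05, 3 higher and 1 lower in KO, beside 6.65% of all genes tested (3.25% higher and 3.40% lower). In cTreg 7 of 9 were called, all higher in KO, beside 27.5% of all genes (14.8% higher and 12.6% lower). The median log2 fold change of the 9 was 0.21 in eTreg and 0.44 in cTreg, beside 0.01 and 0.00 for all genes tested. Same-numbered KO and WT eTreg libraries deviated together from their group means, a pairing read from these same counts and not given by the labels. With replicate number as a block in those 6 libraries all 9 members were called. Of these, 5 were higher (Havcr2 and Btla in addition) and 4 lower (Cd160, Cd96 and Cd200 in addition to Cd226). In that fit the adjusted p-values by edgeR were 0.0278 for Havcr2, 0.00199 for Btla, 0.0307 for Cd160, 0.0492 for Cd96 and 0.0119 for Cd200. With that block 1712 of all genes were called in eTreg, against 829 without it. With the block in all 12 libraries 4 members were called in eTreg, 3 higher and 1 lower, and 857 of all genes. With Rn45s left out of library size the counts were again 4 in eTreg and 7 in cTreg. Without WT eTreg replicate 3 only Tigit and Cd226 of the members were called in eTreg.

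**Figure D2:**
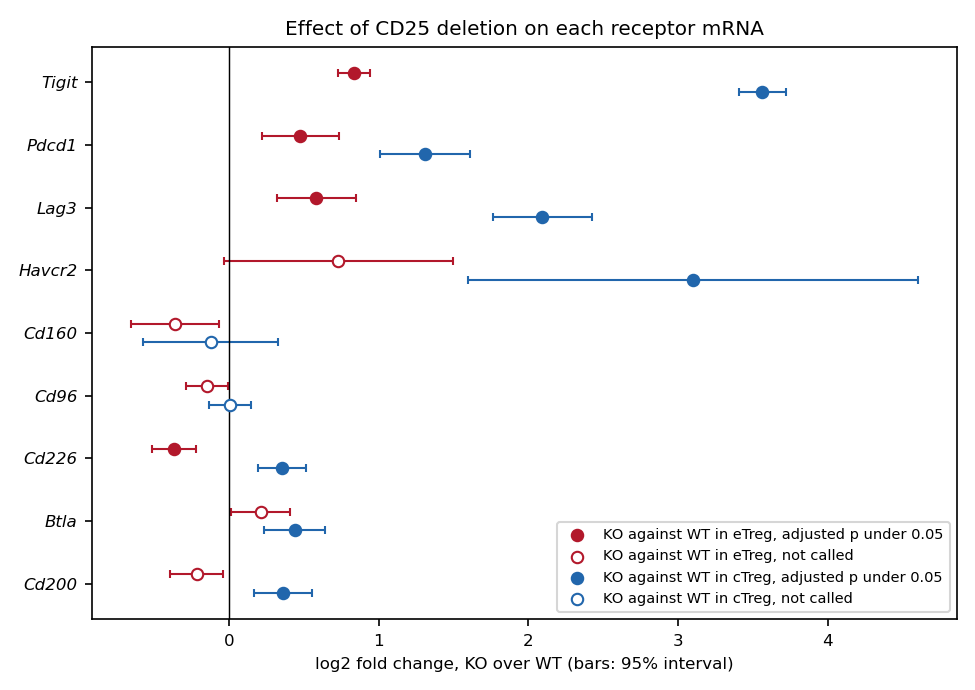
Log2 fold change of each receptor mRNA, KO over WT (horizontal axis), in eTreg (upper symbol of each pair) and cTreg (lower symbol). Bars are 95% intervals from the edgeR fit, and filled symbols have an adjusted p under 0.05. The cTreg value lies right of the eTreg value for all 9 receptors, and Cd226 is called on opposite sides of 0.

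On the log2 scale KO exceeded WT by more in the central gate for Tigit, Lag3 and Pdcd1. KO cells were also gated as low for CD25, and the part of that gate in the receptor differences was not tested. In CPM the gap between KO and WT was wider in eTreg for Tigit (means 190 and 106.5, against 62.0 and 5.24 in cTreg). It was also wider there for Pdcd1 (191 and 138, against 71.0 and 28.6) but not for Lag3 (64.4 and 42.9, against 37.5 and 8.82). Cd226 and Cd200 had estimates of opposite sign in the gates. The interaction, the KO effect in eTreg minus that in cTreg, was called for 5 of 9 members, all negative, beside 3.80% of all genes (0.803% positive and 3.00% negative). The mostly negative split over all genes depended on scaling: it was 100 positive and 374 negative here and 351 and 341 with the length and GC offset, under which the same number of members, 5, was called, all negative. The interaction was -2.73 ± 0.09 for Tigit (edgeR adjusted p = 1.05e-11), -1.51 ± 0.20 for Lag3 (8.34e-04), -0.83 ± 0.18 for Pdcd1 (0.0273) and -0.58 ± 0.12 for Cd200 (0.0130), besides Cd226 above. Havcr2 had -2.37 ± 0.81 and was not called (edgeR adjusted p = 0.149), although DESeq2 called it (0.0122), as did edgeR without WT eTreg replicate 1 (0.0461). Btla, Cd160 and Cd96 had -0.23, -0.24 and -0.16, with adjusted p-values of 0.431 to 0.691. The Pdcd1 call ended when WT cTreg 3, KO cTreg 1, KO cTreg 2, WT eTreg 3 or any library of KO eTreg was left out (edgeR adjusted p up to 0.0740), and with no filter (0.0584).

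All 9 members were higher in eTreg than in cTreg, in both genotypes, a comparison in which 71.5% of all genes were called in WT (35.7% higher and 35.8% lower) and 72.0% in KO (36.1% higher and 35.8% lower). KO eTreg set against WT cTreg, which share libraries with these comparisons, also had all 9 members higher, beside 74.5% of all genes called (37.2% higher and 37.3% lower). The direction held for Tigit, Pdcd1, Lag3, Havcr2 and Cd160 under every scaling tried. With an offset for transcript length and GC content, Cd226 turned round in KO (-0.19, edgeR adjusted p = 0.0186), and Cd96, Btla and Cd200 were no longer called there (0.078, 0.039 and 0.027). In WT the same offset ended the call of Cd96 alone (0.14, adjusted p = 0.101), and it moved the median of all genes to -0.16. Without the offset the subset difference in WT was 4.34 ± 0.07 on the log2 scale for Tigit, 4.33 ± 0.61 for Havcr2, 2.69 ± 0.17 for Cd160, 2.29 ± 0.15 for Lag3, 2.26 ± 0.13 for Pdcd1 and 1.55 ± 0.07 for Cd226. In KO it was 1.62 ± 0.05 for Tigit, 1.97 ± 0.39 for Havcr2, 2.46 ± 0.17 for Cd160, 0.78 ± 0.12 for Lag3, 1.43 ± 0.12 for Pdcd1 and 0.83 ± 0.07 for Cd226. Cd96, Btla and Cd200 had 0.57, 0.94 and 1.05 in WT and 0.41, 0.72 and 0.47 in KO.

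KO cTreg were set against WT eTreg, the cells of the effector gate with CD25 intact, to place the deleted central cells in the order of levels. Tigit was lower in KO cTreg (log2 fold change -0.78 ± 0.05, edgeR adjusted p = 1.42e-09), as was Pdcd1 (-0.95 ± 0.12, 2.96e-05). Lag3 did not differ beyond its spread, at 32.5 to 41.3 CPM in KO cTreg and 40.7 to 45.2 CPM in WT eTreg (-0.19 ± 0.13, edgeR adjusted p = 0.182), but with the length and GC offset it was lower in KO cTreg (-0.92, adjusted p = 7.14e-05). Cd160 was 2.81 lower on the log2 scale in KO cTreg, the widest gap of the 9, and Cd226 was 1.19 lower. In all, 8 of 9 members were called, all lower in KO cTreg, beside 70.2% of all genes (35.2% higher and 35.1% lower). Havcr2 was among them (-1.24 ± 0.40, adjusted p = 0.0158 by edgeR), but not without KO cTreg replicate 1 or 3 or WT eTreg replicate 3 (up to 0.0655) or with the offset (0.0776). Btla was 0.50 lower and called, but the offset turned its direction round (0.17, adjusted p = 0.156).

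These comparisons give the order of the groups. Tigit and Pdcd1 descended from KO eTreg through WT eTreg and KO cTreg to WT cTreg, with every neighbouring pair called. Lag3 had the same order, with WT eTreg and KO cTreg not told apart, and so had Havcr2 and Btla, with KO eTreg and WT eTreg not told apart. Cd226 descended from WT eTreg through KO eTreg and KO cTreg to WT cTreg, each step called, although the step from KO eTreg to KO cTreg is the one that the length and GC offset reversed. For Cd200, WT eTreg and KO eTreg were not told apart at the top. For Cd96 and Cd160 the groups differed by gate, and KO and WT of 1 gate were not told apart. With the length and GC offset the gates were not told apart for Cd96 in either genotype (0.14 in WT and 0.078 in KO). That offset also ended the call of KO eTreg against KO cTreg for Cd200 (0.027). At the step from WT eTreg to KO cTreg it ended the call for Havcr2, turned Btla round and added a call for Lag3. The orders given are from the fit of all 12 libraries without a block or offset. With the replicate block in the 6 eTreg libraries KO and WT eTreg were told apart for Havcr2, Btla, Cd200, Cd96 and Cd160. With the block in all 12 libraries they were not told apart for any of these, as given above.

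**Figure D3:**
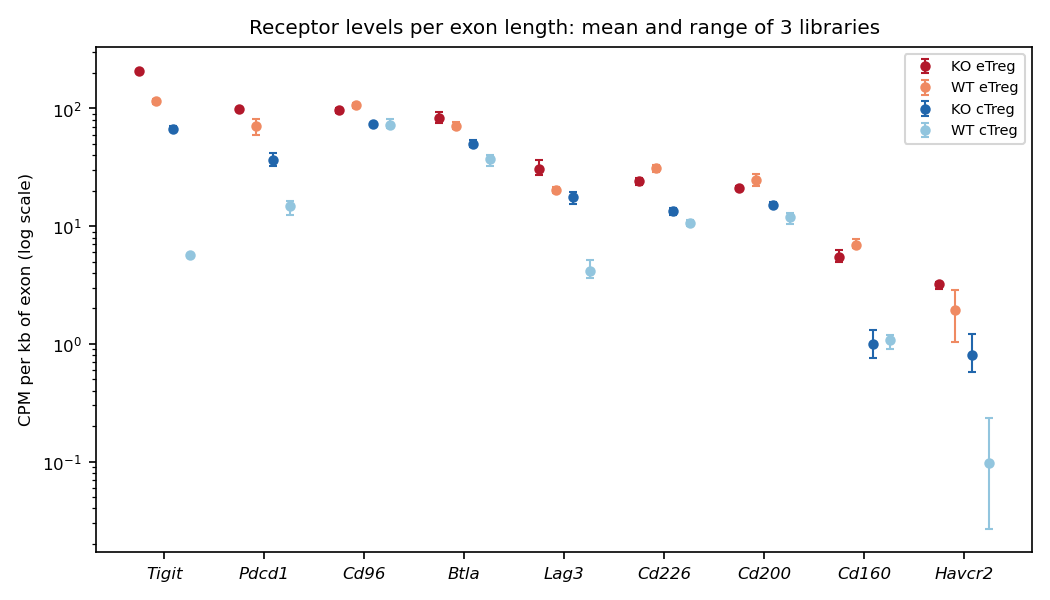
Level of each receptor in CPM per kilobase of exon (vertical axis, log scale), by group. Points are means and bars the range of 3 libraries. In WT cTreg the Tigit point lies below those of Cd96, Btla, Pdcd1, Cd200 and Cd226, and in KO eTreg it lies above all 8 other receptors.

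Per kilobase of exon, a scale on which genes can be compared, the leading receptor changed with group. Tigit was highest in KO eTreg, at 207 ± 6.02 CPM per kb (SD, n = 3), and in WT eTreg, at 116 ± 5.39. In KO cTreg it stood at 67.4 ± 2.93 CPM per kb, next to Cd96 at 73.2 ± 1.15. In WT cTreg it ranked 6th of 9, at 5.70 ± 0.19 CPM per kb, while Cd96 led at 72.8 ± 7.44. Pdcd1 stood at 99.1 ± 1.21, 71.3 ± 10.8, 36.8 ± 4.66 and 14.8 ± 2.07 CPM per kb in KO eTreg, WT eTreg, KO cTreg and WT cTreg. Cd160 and Havcr2 were the lowest in each group, with Havcr2 at 3.22 ± 0.27 CPM per kb in KO eTreg and 0.0968 ± 0.12 in WT cTreg. Exon length was taken over all annotated isoforms, so a gene that uses short isoforms reads too low on this scale.

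Because TIGIT and CD226 compete for one ligand, the ratio of their read counts was taken within each library, where library scaling cancels. The counts were not divided by length, so the ratio is compared between groups only. Tigit reads were 1.79, 1.64 and 1.46 times those of Cd226 in KO eTreg, against 0.732, 0.715 and 0.667 times in WT eTreg. In cTreg they were 0.880, 1.06 and 0.882 times in KO, against 0.109, 0.0914 and 0.108 times in WT. No KO library overlapped a WT library of its gate. KO exceeded WT by 1.20 on the log2 scale in eTreg and by 3.20 in cTreg, a mean of 2.20 (exact permutation test within gates, two-sided, p = 0.005, the smallest that its 400 arrangements allow, 0.0075 adjusted over the 3 ratios tested).

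The ratio of Tigit to Cd96 was higher in KO, by a mean of 2.26 on the log2 scale (exact permutation p = 0.005, adjusted 0.0075). The difference was 0.98 in eTreg and 3.54 in cTreg. This ratio shares Tigit with the ratio above and Cd96 differed little, so it largely restates the rise of Tigit. Tigit reads were 0.899, 0.958 and 0.833 times those of Cd96 in KO eTreg, against 0.505, 0.415 and 0.444 times in WT eTreg, and 0.393, 0.406 and 0.365 times in KO cTreg, against 0.0355, 0.0341 and 0.0305 times in WT cTreg. For Pdcd1 to Btla, a pair of inhibitory receptors, KO exceeded WT by a mean of 0.57 (exact permutation p = 0.01, adjusted 0.01), with 0.27 in eTreg, where the libraries overlapped (0.615 to 0.743 in KO and 0.441 to 0.671 in WT), and 0.87 in cTreg. Within 1 gate, 3 libraries against 3 cannot reach an exact p below 0.1.

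**Figure D4:**
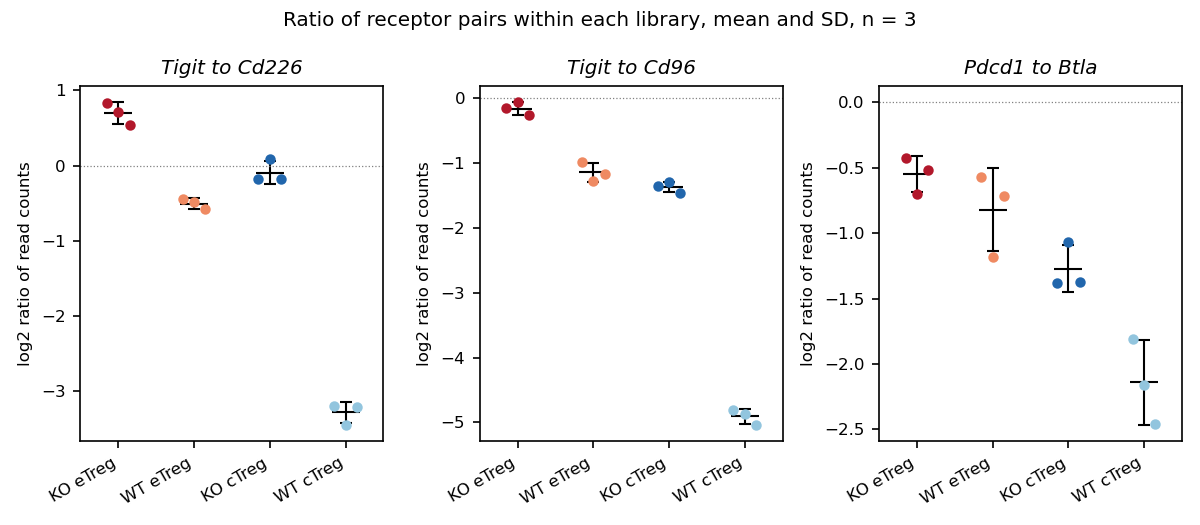
Log2 ratio of read counts of Tigit to Cd226, Tigit to Cd96 and Pdcd1 to Btla (vertical axes) in the 12 libraries by group. Points are libraries, bars give the mean and SD of 3, and the dotted line marks equal counts. For Tigit to Cd226 the KO eTreg libraries lie at 0.54 to 0.84, above 0, and the WT eTreg libraries at -0.58 to -0.45, below it.

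Other genes of these pathways were taken from lists. Of 17 ligands and partners 11 were tested, and 1 was called in KO eTreg and 5 in KO cTreg, all higher, beside the shares of all genes given above. In eTreg the riser was Tnfrsf14, the gene of HVEM (0.36 ± 0.06, edgeR adjusted p = 0.00239). In cTreg the largest rises were Lgals3, a galectin reported to bind LAG-3 (2.92 ± 0.58, 14.8 CPM in KO and 1.95 CPM in WT), and Pvrl1, which encodes nectin-1 (2.87 ± 0.24, 6.71 CPM in KO and 0.909 CPM in WT). Pvr, the gene of CD155 itself, was not called in either gate, with -0.11 ± 0.11 in eTreg (edgeR adjusted p = 0.644) and -0.19 ± 0.10 in cTreg (0.200), and was picked out once its values were known.

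Of 15 signalling and shedding genes 3 rose and 2 fell in KO eTreg, and 7 rose and 3 fell in KO cTreg. Of all genes tested 3.25% were higher and 3.40% lower in KO eTreg, and 14.8% higher and 12.6% lower in KO cTreg. Ptpn11, the gene of the phosphatase SHP-2, rose by 0.35 ± 0.06 in eTreg and 0.62 ± 0.06 in cTreg. Sh2d1a, an adaptor of the SLAM receptors, rose by 0.38 ± 0.08 in eTreg and 1.03 ± 0.09 in cTreg. Cish, a feedback inhibitor induced by STAT5, had -0.86 ± 0.11 in eTreg and -1.34 ± 0.11 in cTreg. Grap2, an adaptor of T cell receptor signalling, had -0.27 ± 0.05 in eTreg and -0.26 ± 0.05 in cTreg. By edgeR all 8 values had adjusted p-values of 0.00909 or less, but that of Sh2d1a in eTreg was 0.0514 with the length and GC offset.

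Of 24 transcription factors known to act on these receptors 6 rose and 3 fell in KO eTreg, and 15 rose and 3 fell in KO cTreg, beside 6.65% of all genes called in eTreg and 27.5% in cTreg. Tbx21, the gene of T-bet, rose by 0.67 ± 0.15 in eTreg and by 2.77 ± 0.19 in cTreg, where it stood at 19.1 CPM in KO and 2.81 CPM in WT. Its eTreg call ended without WT eTreg replicate 1 or 2 (edgeR adjusted p up to 0.0577). Prdm1, the gene of Blimp-1, rose by 0.65 ± 0.11 in eTreg and by 1.85 ± 0.13 in cTreg. Tox2 rose by 2.48 ± 0.22 in cTreg, and its eTreg difference of 0.57 ± 0.17 was not called (edgeR adjusted p = 0.0745). Bach2, a repressor that holds T cells in a resting state, was lower by log2 fold changes of -0.54 ± 0.09 in eTreg and -0.67 ± 0.08 in cTreg, and Foxp3, which defines Tregs, by -0.48 ± 0.06 and -0.79 ± 0.06 in the same order. Over the 24 factors the median log2 fold change was 0.19 in eTreg and 0.56 in cTreg.

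Other coinhibitory receptors made up a list of 15. Of these 8 were tested, and in KO cTreg 2 rose and 1 fell, 37.5% of the 8 and near the 27.5% of all genes called. In KO eTreg edgeR called 0, DESeq2 0 and limma-voom 1, and 2 had an unadjusted p under 0.05 by edgeR, Klrg1 and Lilrb4a. Klrg1, an inhibitory lectin receptor of effector cells, rose by 2.20 ± 0.57 in cTreg (4.58 CPM in KO and 1.01 CPM in WT), a call that ended in limma-voom (adjusted p = 0.0534) and without WT cTreg replicate 2 or KO cTreg replicate 3 (edgeR adjusted p up to 0.0588). Ctla4 rose by 0.32 ± 0.08 and Cd101 was lower (-0.40 ± 0.08), both in cTreg. Of 8 costimulators of the immunoglobulin family tested, Slamf6 (0.39 ± 0.07) and Cd2 (0.17 ± 0.05) rose in KO eTreg and 3 rose in KO cTreg, among them Icos (1.93 ± 0.19) and Slamf6 (0.70 ± 0.07). The 3 of 8 in cTreg were again 37.5%, near that background, and the background in eTreg was 6.65%. The call of Cd2 ended with any eTreg library left out (edgeR adjusted p up to 0.134).

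**Figure D5:**
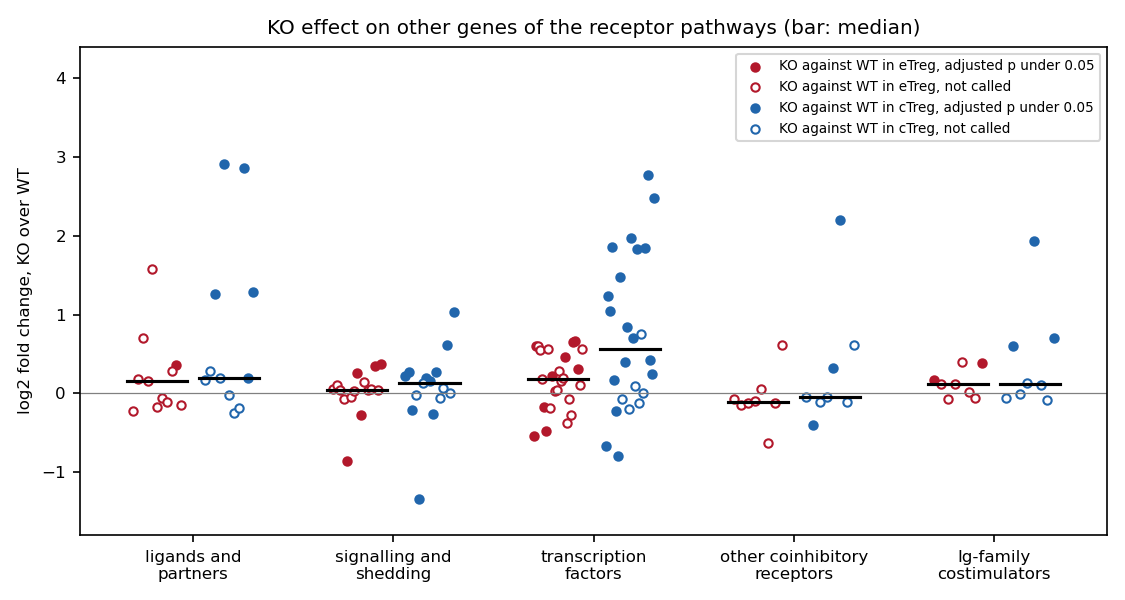
Log2 fold change, KO over WT (vertical axis), of the tested genes of 5 lists in eTreg (left column of each list) and cTreg (right column). Points are genes, filled where the edgeR adjusted p was under 0.05, and bars are medians. The transcription factor list has the highest median in cTreg, at 0.56.

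The 4 members of chromosome 16 had 16 other tested genes between them. In KO eTreg edgeR called 0 of them, DESeq2 1 and limma-voom 0, and 3 had an unadjusted p under 0.05 by edgeR (Sidt1, Cd200r1 and Cd200r3). In KO cTreg 5 were called, all higher, beside 14.8% of all genes higher. The largest were Boc (0.328 CPM in KO cTreg, against 0.0256 CPM in WT cTreg) and Ccdc80 (0.361 against 0.0481 CPM), both under 1 CPM in all 6 libraries. Btla and Cd200 lie 124.5 kb apart and Cd200 and Cd96 626.6 kb apart, and Cd96 alone of these was not called in KO cTreg.

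Over the 12 libraries, Pearson correlations of log2 CPM between Tigit, Pdcd1, Lag3 and Havcr2 were 0.94 to 0.99, and those between Cd160, Cd96 and Cd226 were 0.93 to 0.96. Pdcd1 with Btla (0.95) and Cd226 with Cd200 (0.95) were as high, so these are not separate sets, and the lowest pair was Lag3 with Cd96 (0.62). These describe the 4 groups that the libraries fall into and have no p. Among 8504 other genes of at least 3 mean log2 CPM, those most like Tigit were Ttc39c and Cobll1 (0.99 each). Most like Pdcd1 were Casp1 and Gpr171 (0.99 each), and most like Lag3 were Nfatc1 and Tigit (0.99 each). Havcr2 was most like Myo1c and Polr2m (0.99 and 0.98), Cd160 like Rnf139 and Mynn (0.99 each), and Ryr2 was among those most like Cd96 (0.97). Cd226 was most like Lpar6 and Zfp280b (0.98 each), Btla like Kctd9 and Brwd3 (0.99 each), and Cd200 like Zfp280b and Axl (0.98 each). Within groups Tigit and Ttc39c deviated in opposite senses (-0.51), whereas Pdcd1 and Casp1 deviated together (0.82).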

How the data were processed

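Bulk RNA-seq counts per gene symbol were used as deposited. Per the labels' protocols, total RNA came from RNeasy columns (Qiagen), and KAPA HyperPrep libraries followed removal of ribosomal RNA. HISAT2 2.2.1, Cell Ranger and mm10 are named in the submitters' processing notes, with no role for each. No counting tool, annotation or strand setting was given in the sources used here, and Cd160 reads in its overlap with Pdzk1 are uncertain. Counting error is largest for genes of few reads, such as Havcr2, Boc and Ccdc80 in WT cTreg.

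After filterByExpr and TMM scaling, 1 model of all 12 libraries was fitted in edgeR 4.0.16 (R 4.3.3) with robust dispersions. Quasi-likelihood tests were adjusted by Benjamini and Hochberg's method over 12461 genes in each of 7 contrasts. Calls use an adjusted p under 0.05. An SE is the log2 fold change divided by the square root of F. Log2 CPM used a prior count of 2, and ratios a pseudocount of 0.5. Alternatives were DESeq2 1.42.0 (size factors, and its Wald test), limma-voom (limma 3.58.1), no filter, a stricter filter (3 libraries with 1 CPM or more), library size without Rn45s, a length and GC offset, replicate blocks, the 6 libraries of a contrast alone, and leaving out each library.

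On simulated data edgeR called 61 of 100 genes altered 1.5-fold and 79 of 100 altered 2-fold for KO against WT in eTreg (12360 genes), and 59 and 81 in cTreg (12351 genes), with 4.11% and 6.67% of calls false. Only 200 genes were altered in each simulation, fewer than the 829 and 3421 genes called in the data. These rates need not hold for the real contrasts.

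Replicate numbers were taken to pair KO and WT eTreg libraries, whose deviations correlated at 0.257, 0.341 and 0.166 by number, and not KO and WT cTreg (-0.105, 0.0047 and 0.0622). KO and WT eTreg libraries of different number correlated at -0.31 to 0.07. With 3 libraries per group few pairings are possible, so these values cannot show that the pairing is real. The labels state no shared litter or day. Replicates are pools of mice, and nothing says whether pools were sorted separately. Replicates differed by more than counting noise (chi-square per degree of freedom 3.68 to 10.3).

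Members, lists and the rule for named genes were chosen with earlier results of these data known. The rule names all members, up to 2 called genes of each list per direction and gate, the 2 genes most like each member, and the 2 largest called chromosome 16 neighbours. A marker list and a gene that the rule names are not reported here. Newer symbols were matched to the table's older ones through RefSeq synonyms (Pvrl1 for nectin-1). Proteins were not analysed here.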

Additional observations from a re-analysis of the deposited data

Results flagged for a closer look

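The KO effect differed between the gates for 5 members by edgeR's interaction test, which is what marked them. The difference, eTreg effect minus cTreg effect on the log2 scale, was -2.73 for Tigit, -1.51 for Lag3, -0.83 for Pdcd1, -0.72 for Cd226 and -0.58 for Cd200. For Cd226 every KO library moved down in eTreg and up in cTreg relative to WT. The groups are 3 libraries each, too few for a test of single outlying libraries.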

How the results depend on the processing

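Each member's value in 7 contrasts was recomputed under the alternatives, 1368 values in all, of which 1327 kept direction and side of the threshold, 24 lost and 9 gained a call, and 8 changed sign. The count of 7 members in KO against WT cTreg was 7 under every alternative. In eTreg the count of 4 became 9 with the replicate block in the 6 eTreg libraries and ranged from 2 to 4 when a library was left out, the low being without WT eTreg replicate 3. The block in 6 libraries also called Lag3 for KO cTreg against WT eTreg (-0.20, 9 members in place of 8), groups for which pairing by number was not examined, and changed no other count of members. With the length and GC offset Cd96 had -0.078 for KO against WT in cTreg and -2e-04 for KO eTreg against WT cTreg, Btla 0.17 for KO cTreg against WT eTreg and Cd226 -0.19 for eTreg against cTreg in KO. Leaving out a library gave -0.036 to 0.096 for Cd96 and -0.36 to 0.039 for Cd160, KO against WT in cTreg, both uncalled values near 0. Among likeness values, that of Tigit to Ttc39c was -0.51 within groups. The cause was not tested in any of these. Counts over all genes moved by over 1.5 times in KO against WT eTreg with the block in 6 libraries (1712 against 829) and when WT eTreg 2, WT eTreg 3 or KO eTreg 3 was left out (455, 497 and 462), and in the interaction without KO cTreg replicate 2 (314 against 474). The offset gave 1489 higher and 2312 lower genes for KO against WT in cTreg, in place of 1847 and 1574, and 2626 and 5344 for eTreg against cTreg in WT, in place of 4449 and 4465. It gave 2947 and 4396 for eTreg against cTreg in KO, in place of 4503 and 4465, 4492 and 2798 for KO cTreg against WT eTreg, in place of 4382 and 4371, and 2966 and 5284 for KO eTreg against WT cTreg, in place of 4638 and 4650. Library size without Rn45s gave 301 higher and 546 lower genes for KO against WT in eTreg, in place of 405 and 424. The ratio tests kept their calls with a larger pseudocount, with a replicate block and with each library left out (exact permutation p-values of 0.005 to 0.0312). The other alternatives, among them the length and GC offset, were not applied to the ratios. Depth limits genes of few reads, among them Havcr2 in WT cTreg.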
